A study of Homo sapiens with 15 samples.

Results

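The libraries titled trex4039 were compared directly with those titled trex8168, without going through the control, by the log2 ratio of the authors' group means after adding 1 normalised count to each. Rows with a mean of at least 50 normalised counts over the 15 libraries entered, which kept 9795 of the 11230 rows of the deposited table. A positive log2 ratio means a higher level in trex4039. Of the 9795 rows, 6972 were annotated as protein-coding and 3163 were named only by a locus identifier.

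Both groups were HEK293FT cells, a fast-growing, easily transfected derivative of a human embryonic kidney line. They received plasmids for dCas9-VP64 and for an MS2-p65-HSF1 fusion with a pool of 5 guide RNAs. In a target group the guides lay between 50 and 450 bp before the start of a TrEx RNA, a long non-coding RNA named for its transient expression; the control pool was non-targeting. Puromycin at 2 ug/mL was given at 24 h and polyA RNA was taken at 48 h, so all groups share the activator plasmids, the selection and the time. Each of the 5 groups (trex4039, trex8168, trex5008, trex0108 and control) had 3 libraries, described as biological triplicates. The libraries titled trex4039 are labelled as targeting TrEx4039, but those titled trex8168 carry the target label TrEx5008, and those titled trex5008 carry TrEx8168. Groups are called here by their titles, which the table's columns follow, and the conflict was not settled. No column of the deposited table ties a TrEx number to a locus, so the targeted RNA is not identified in either group.

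Levels below are group means of normalised counts as the authors computed them; values per library were not used here, no SD is given, and the depth is unknown. The rows of the table are those with an adjusted p under 0.1 in at least 1 of the 4 comparisons with control, so the 9795 rows are not a sample of all genes. With group means alone the direct ratio is a description, and called means past a stated fold. A test was had only in an approximate form, from the difference between the 2 log2 fold changes against control that the table lists. Their standard errors were recovered from the adjusted p-values, and Benjamini-Hochberg adjustment was made over all rows tested. This approximate Wald test took the 2385 rows that the authors called in both comparisons. An extended Wald test took the 9986 rows called in either comparison, with the missing error set equal to the other. The 2 recovered errors of rows called in both had a median ratio of 0.99, with a range of 0.92 to 1.22. The deposited fold changes are shrunken towards 0, so their differences are smaller than the direct log2 ratios.

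CRISPR activation uses a Cas9 that binds DNA without cutting it. Guide RNAs bring it, with the activation domains VP64, p65 and HSF1, to the stretch before a gene's start, where transcription of that gene is raised. A direct comparison of 2 activated groups sets aside what any guide pool and the activators share, and leaves what differs between the 2 pools and between the 2 sets of libraries, which cannot be told apart here.

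Among protein-coding rows that led the comparison, 3 promoters are printed as examples. They were not taken by a rule and do not stand for the ends of the ratio. Each is the 250 bases before the RefSeq start on GRCh38.p14, 5′ to 3′ on the gene's strand. PKLR led the higher coding rows (chr1:155301439-155301688, minus strand, 46% GC). S100A4 (chr1:153545807-153546056, minus strand, 62.8% GC) and B4GALNT4 (chr11:369249-369498, plus strand, 85.2% GC) were among the rows past 2-fold lower. Capitals mark GGGCGG or its complement CCGCCC, and TATAAA or its complement TTTATA, searched on both strands; the motifs do not overlap each other, but copies of the same motif can.
PKLR: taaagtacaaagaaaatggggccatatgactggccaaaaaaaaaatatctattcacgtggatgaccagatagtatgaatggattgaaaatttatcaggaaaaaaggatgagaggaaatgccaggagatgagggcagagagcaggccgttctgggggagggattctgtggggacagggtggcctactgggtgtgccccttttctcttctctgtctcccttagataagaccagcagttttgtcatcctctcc
S100A4: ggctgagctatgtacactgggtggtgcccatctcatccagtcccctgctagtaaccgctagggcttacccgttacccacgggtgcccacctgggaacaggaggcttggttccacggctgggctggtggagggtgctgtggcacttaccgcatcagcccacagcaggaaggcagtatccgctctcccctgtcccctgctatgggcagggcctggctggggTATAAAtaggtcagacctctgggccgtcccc
B4GALNT4: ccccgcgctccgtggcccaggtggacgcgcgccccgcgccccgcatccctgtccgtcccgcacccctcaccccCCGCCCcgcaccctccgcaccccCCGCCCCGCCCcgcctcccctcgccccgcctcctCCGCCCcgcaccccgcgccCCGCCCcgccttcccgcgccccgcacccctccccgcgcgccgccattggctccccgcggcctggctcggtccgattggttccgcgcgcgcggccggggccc
The PKLR stretch held 0 copies of GGGCGG and 0 of TATAAA, S100A4 held 1 TATAAA, and B4GALNT4 held 5 GGGCGG on the complementary strand. Of rows at least 1.5-fold higher in trex4039, 45 of 94 matched a promoter by symbol, and their median promoter GC was 54.4%. Of rows at least 1.5-fold lower, 100 of 248 matched, with a median of 70% GC. Across the 4575 matched rows of the comparison the median was 65.6%, so S100A4, a lower row, lay below it. GGGCGG stood in 48.9% of the promoters of higher rows and in 75% of those of lower rows, against 68.4% of the matched rows of the comparison and 42.3% of all 27305 promoters. TATAAA stood in 8.89% of the promoters of higher rows and 10% of those of lower rows, against 4.92% of the matched rows of the comparison and 11.1% of all promoters. These matches describe the letters of the stretch and not the binding of a factor.

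The 2 sets of libraries were close for most rows. The log2 ratio of the 9795 rows had a median of -0.01, quartiles of -0.25 and 0.19, and an SD of 0.30 over rows, and 48.8% of the rows lay above 0. At least 2-fold higher in trex4039 were 5 rows (0.051% of those compared) and at least 2-fold lower were 16 rows (0.163%). Together these were 21 rows (0.214%). At 1.5-fold, 94 rows were higher (0.96%) and 248 were lower (2.53%), 342 in all (3.49%). By the difference of the deposited fold changes, 1 row was past 2-fold higher and 4 were past 2-fold lower. Against control, each group's own calls differed in number: the authors' deposited table gives 4022 of the 9795 rows as higher in trex4039 (41.1%) and 3148 as lower (32.1%), counted below 0.05 in its adjusted p. For trex8168 the authors' deposited table gives 1541 rows higher (15.7%) and 556 lower (5.68%) by the same threshold. The approximate Wald test called 190 of 2385 rows higher in trex4039 (7.97%) and 327 lower (13.7%), with a median size of 0.34 among the called rows on the scale of the deposited fold changes. Among the 2190 tested rows with a mean of at least 50 these were 190 higher (8.68%) and 324 lower (14.8%), 514 in all (23.5%). The extended Wald test called 1419 of 9986 rows higher (14.2%) and 2006 lower (20.1%).

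**Figure D1:**
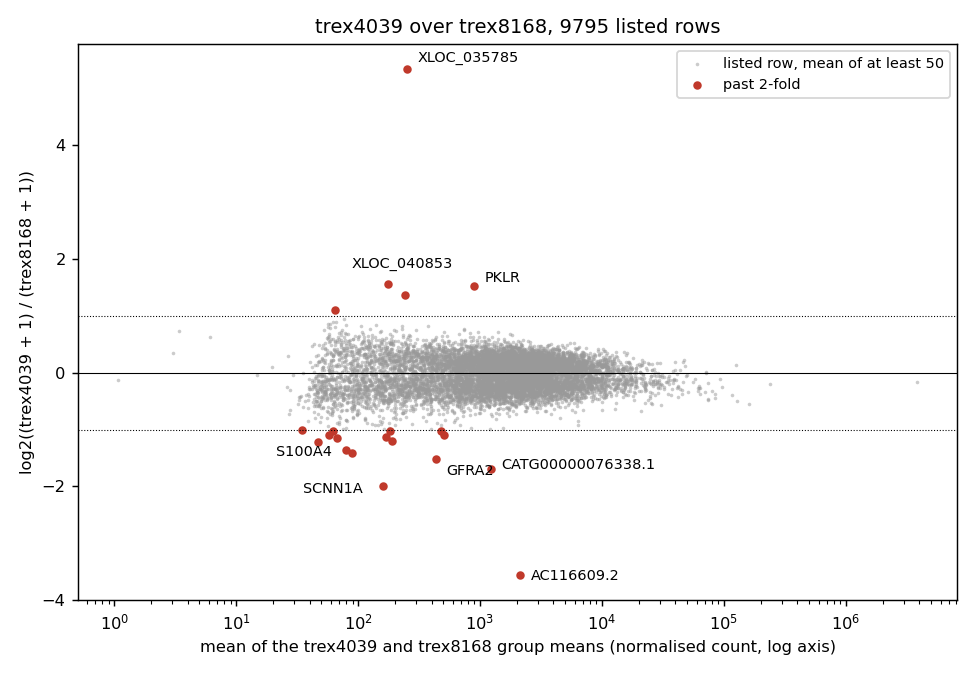
Log2 ratio of trex4039 over trex8168 (vertical) against the mean of the 2 group means in normalised counts (horizontal, log axis); each grey point is 1 of 9795 rows, red points are at least 2-fold apart, and dotted lines mark 2-fold. A total of 5 red points lie above and 16 below, and XLOC_035785 at 5.34 and AC116609.2 at -3.56 stand furthest from 0.

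The rows furthest apart were a non-coding locus on each side, both on chromosome 2 and far from each other. XLOC_035785 (hg19 chromosome 2, 56180865 to 56276825, no annotated type) had 491.9 normalised counts in trex4039 and 11.2 in trex8168, a 44.1-fold ratio and a log2 ratio of 5.34. It had 11.3 in trex5008, 14.4 in trex0108 and 12.2 in control, so trex4039 alone was high. Its mean over all libraries was 108.2 and every other group lay under the minimum mean. XLOC_035785 therefore entered the comparison only through trex4039. The lincRNA AC116609.2 (chromosome 2, 739816 to 751712) had 331.1 in trex4039 and 3908 in trex8168, 11.8-fold lower in trex4039, with a log2 ratio of -3.56. It had 138.1 in trex5008, 149.8 in trex0108 and 162.5 in control, so trex8168 was highest by far and trex4039 came next. Its adjusted p for trex8168 is listed as 0 in the authors' deposited table, from which no error can be recovered for that group.

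Listed rows near these loci did not share their size of difference. Within 500 kb of XLOC_035785, 4 rows were listed, with log2 ratios of -0.45 to 0.27 and none past 1.5-fold. PNPT1, a mitochondrial RNA-degrading enzyme 259.8 kb away, had 3226 in trex4039 and 3013 in trex8168. Within 500 kb of AC116609.2, 2 rows were listed: the antisense RNA AC116614.1 at -0.66 (143.4 in trex4039 and 227.8 in trex8168) and XLOC_032422 at 0.04. The direction of AC116614.1 is that of AC116609.2, but trex8168 was at 227.8 and control at 220.1, so the distance lay between trex4039 and both others.

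Among locus rows, a second pattern recurred. XLOC_040853 (chromosome 22, 22929664 to 22930281) had 263.2 in trex4039 and 88.7 in trex8168, with 274.8 in trex5008, 156.9 in trex0108 and 93.2 in control. CATG00000034574.1 (chromosome 17, 73198551 to 73201464) had 346.8 in trex4039 and 133.3 in trex8168, with 368.6 in trex5008, 183.9 in trex0108 and 118.0 in control. Both were therefore high in trex4039 and trex5008 alike, low in trex8168 and control, and between in trex0108. Their log2 ratios were 1.56 and 1.37, and both passed the extended Wald test (adjusted p = 0.0029 and 0.012). On the other side, CATG00000076338.1 (chromosome 1, 152077685 to 152118401) had 576.0 in trex4039 and 1873 in trex8168, against 479.4 in trex5008, 613.1 in trex0108 and 622.6 in control, a log2 ratio of -1.70. XLOC_032299 (chromosome 19, 54972790 to 54974961) had 114.1 in trex4039 and 262.9 in trex8168, and control at 164.4 lay between them. It lies inside the listed interval of LENG8, whose own row had 4363 in trex4039 and 6913 in trex8168. Whether reads were counted by strand is not stated in the labels, so rows that overlap are uncertain.

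The protein-coding row highest in trex4039 was PKLR (chromosome 1, 155253534 to 155278442), the pyruvate kinase of liver and red blood cells. PKLR had 1320 normalised counts in trex4039 and 458.2 in trex8168, 2.88-fold higher, with 1255 in trex5008, 589.6 in trex0108 and 403.6 in control. It thus followed the order of XLOC_040853 and CATG00000034574.1, with trex4039 and trex5008 high together. The difference of its deposited log2 fold changes was 0.80 ± 0.20 (approximate SE), against a direct log2 ratio of 1.52, and it passed the extended Wald test (adjusted p = 8.74e-04). The median approximate SE over rows of the comparison in that test was 0.10, so the error of PKLR lay well above it. Within 500 kb lay 19 other rows of the comparison, all below 0, with log2 ratios of -0.92 to -0.02; 0 were higher past 1.5-fold and 2 were lower, THBS3 and DPM3. Among them HCN3, a pacemaker channel gene whose row overlaps PKLR, had 759.3 in trex4039 and 1009 in trex8168.

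Further coding rows higher in trex4039 were lower expressed, and fall in several roles. PLEK, encoding pleckstrin, a protein kinase C substrate of platelets and white cells, had 101.0 in trex4039 and 52.0 in trex8168, with the other groups between 48.9 and 60.4, so trex4039 alone was high. ETV1, an ETS transcription factor, had 480.4 in trex4039 and 272.6 in trex8168, with control at 322.5 between them. THBS1, the matrix glycoprotein thrombospondin, had 372.8 in trex4039 and 221.1 in trex8168, with control at 265.5. All 3 passed the extended Wald test (adjusted p = 0.012 for PLEK, 1.35e-05 for ETV1 and 8.53e-04 for THBS1). ALOXE3, an epidermal lipoxygenase, had 157.6 in trex4039 and 92.1 in trex8168, and the other groups lay between 75.5 and 95.6. ST8SIA6, which adds sialic acid to glycoproteins, was the 1 row of these 12 that the authors called in both comparisons. It had 178.7 in trex4039 and 99.1 in trex8168 around a control of 135.1, and passed the approximate Wald test (adjusted p = 0.0027). The zinc finger gene ZNF141 had 101.7 in trex4039 and 56.0 in trex8168. IFLTD1, EFCAB5 and CCDC178, whose roles in these cells are little known, had log2 ratios of 0.90, 0.82 and 0.81 and passed the extended Wald test. GABRR2, a rho subunit of GABA receptors, at 0.81 and ZNF280A at 0.74 did not pass it (adjusted p = 0.059 and 0.14). Their highest level in any group was 74.1 normalised counts, for ZNF280A in trex0108.

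Rows lower in trex4039 began with membrane proteins that were high in trex8168 alone. SCNN1A (chromosome 12, 6455757 to 6486861), the alpha subunit of the epithelial sodium channel, had 63.4 in trex4039 and 254.9 in trex8168, with 43.9 in trex5008, 60.1 in trex0108 and 68.3 in control. It was 4.02-fold lower in trex4039, and the difference of the deposited log2 fold changes was -1.51 ± 0.18 (approximate SE; extended Wald test, adjusted p = 1.02e-13). GFRA2 (chromosome 8, 21222612 to 21669850), the co-receptor that binds neurturin and signals through RET, had 223.8 in trex4039 and 640.8 in trex8168, with 176.7 in trex5008, 217.1 in trex0108 and 189.6 in control. Its difference was -1.32 ± 0.14 (approximate SE; extended Wald test, adjusted p = 1.72e-17). Of the 11 genes listed for GDNF family receptors and ligands, 3 were among the 9795 rows. The ligand genes did not go one way: NRTN, which encodes neurturin, had 144.2 in trex4039 and 208.4 in trex8168, and GDNF had 267.5 in trex4039 and 187.0 in trex8168. P2RX2, an ATP-gated ion channel, differed from these in that the low group was trex4039: it had 40.5 in trex4039 and 83.4 in trex8168, with 86.4 in control.

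Calcium-binding and secreted proteins followed. S100A4 (chromosome 1, 153516073 to 153522564), a calcium-binding protein linked to cell motility, had 48.3 in trex4039 and 129.9 in trex8168, with 39.5 in trex5008, 49.4 in trex0108 and 43.0 in control. The trex8168 group was again the high one and the other 4 lay close together. The mean of S100A4 over all libraries was 62.0, and the other 4 group means each lay under the minimum mean. The row therefore entered the comparison only through trex8168, so a single high group is partly built into its choice. Of the 6 S100 and annexin rows it was the 1 past 1.5-fold; S100A3, whose row overlaps it and lies under the minimum mean, had 16.1 in trex4039 and 11.5 in trex8168. PAMR1, a secreted protein with a peptidase-like domain, had 119.9 in trex4039 and 245.1 in trex8168, with the other groups at 108.3 to 144.8. FAM150A, a secreted ligand of the receptor kinase ALK, had 43.9 in trex4039 and 114.7 in trex8168, with control at 61.8. Its mean over all libraries was 62.0, while trex4039, trex5008 (48.1) and trex0108 (41.5) lay under the minimum mean. The high trex8168 group helped FAM150A into the comparison, so that group too is partly built into the choice. The lipocalin gene LCN12 had 27.7 in trex4039 and 65.8 in trex8168, but control, at 73.4, lay with trex8168. CLEC11A, a secreted growth factor of blood and bone precursors, had 107.9 in trex4039 and 216.8 in trex8168, with control at 181.1. The 5 rows passed one of the Wald tests, with adjusted p of 0.0069 or less: the approximate test for FAM150A and the extended test for the other 4.

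The other 4 lower coding rows named were an enzyme, a trafficking protein, a transcription factor and a globin. B4GALNT4, a glycosyltransferase of N-acetylgalactosamine, had 311.8 in trex4039 and 636.1 in trex8168, with 483.2 in trex5008, 593.2 in trex0108 and 683.4 in control, so trex4039 was the low group. SYTL1, a synaptotagmin-like partner of RAB27, had 41.5 in trex4039 and 93.2 in trex8168, with control at 93.8. IRX4, a homeobox factor known from the heart ventricle, had 106.3 in trex4039 and 232.9 in trex8168, with control at 153.8 between them. HBQ1, a theta globin gene, had 49.9 in trex4039 and 100.8 in trex8168. All 4 passed one of the Wald tests; the largest adjusted p was 0.015, for HBQ1 in the extended test.

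**Figure D2:**
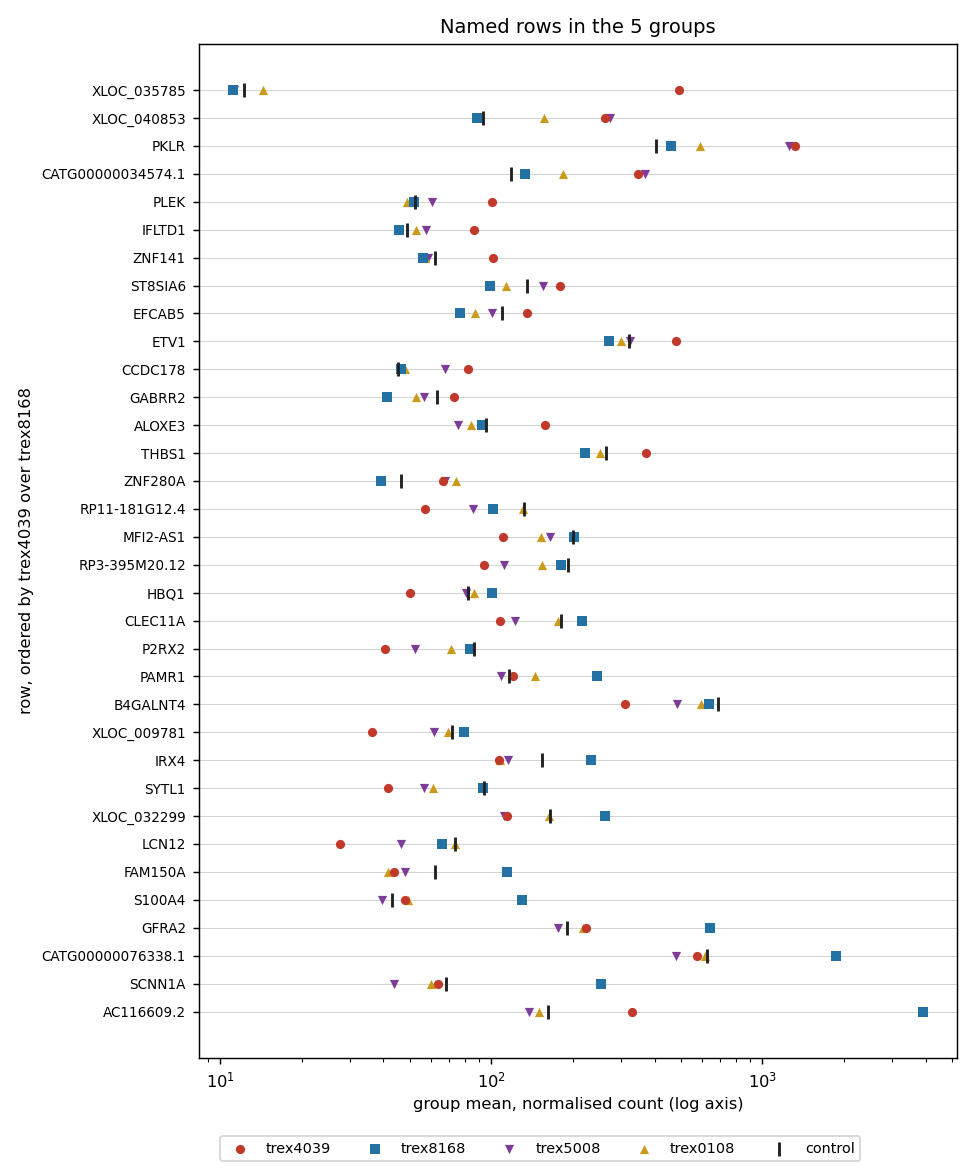
Authors' group means in normalised counts (horizontal, log axis) of rows at both ends of the comparison (1 per line, ordered by the ratio of trex4039 over trex8168); markers give trex4039, trex8168, trex5008, trex0108 and control, with no error since values per library were not used. SCNN1A, GFRA2, S100A4 and AC116609.2 have trex8168 apart from the other 4 groups, while in PKLR and the 2 loci beside it trex4039 and trex5008 lie together.

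After AC116609.2, the row with a non-coding annotation that was furthest down was XLOC_064106, a processed transcript named after its values were seen since it has a locus name only. It had 324.9 in trex4039 and 692.6 in trex8168, with 756.1 in control, a log2 ratio of -1.09 (extended Wald test, adjusted p = 6.87e-09). Of rows with a gene or clone name, the next 3 also had a trex4039 mean below control. The antisense RNA MFI2-AS1 had 110.1 in trex4039 and 201.2 in trex8168, with 199.8 in control. RP3-395M20.12 (chromosome 1, 2461274 to 2484215) had 94.3 in trex4039 and 180.4 in trex8168, with 191.5 in control; its row overlaps that of HES5. RP11-181G12.4 had 56.9 in trex4039 and 101.8 in trex8168, with 132.2 in control. These 3 passed the extended Wald test, with adjusted p of 0.0016 to 0.017. On the higher side CTD-2353F22.1 had 72.9 in trex4039 and 39.6 in trex8168 (extended Wald test, adjusted p = 0.032), with control at 62.6. RNU5E-1, the pseudogene RPS3AP47 and a row named MIR4426 that the table annotates as a pseudogene had log2 ratios of 0.85, 0.77 and 0.76, and did not pass it (adjusted p = 0.056, 0.38 and 0.30). The MIR4426 row spans more than a microRNA and is not read as that microRNA's level. By annotated type, the median log2 ratio was -0.15 over 257 antisense rows and -0.13 over 145 lincRNAs, against 0.00 over the protein-coding rows. With the GC trend removed the medians were -0.07 over the 64 antisense rows that have a GC content, -0.02 over 38 lincRNAs and 0.00 over the protein-coding rows.

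Of the 73 rows named by rule, 10 could enter the approximate Wald test and 9 passed it; of the 73 in the extended test, 60 passed. Over all tested rows of the comparison 23.5% passed the approximate test and 38.5% the extended test. The named rows were chosen by the ratio of the same group means, which by itself raises the share that passes. Coding rows that led the approximate test, a choice made after their values were seen, were mostly well expressed. MFSD3, a membrane transporter-like gene, had 1046 in trex4039 and 2052 in trex8168, with control at 1789. CALCB, a calcitonin gene-related peptide gene, had 265.6 in trex4039 and 526.3 in trex8168, with control at 415.1. The axonal kinesin KIF1A had 2866 in trex4039 and 4742 in trex8168, and control at 4107 lay between them. On the higher side CPEB4, which binds poly(A)-extending elements of mRNAs, had 2244 in trex4039 and 1424 in trex8168, with control at 1676. SKIL, a repressor of SMAD signalling, had 2068 in trex4039 and 1448 in trex8168, with control at 1762. In these 5 the control mean lay between those of trex4039 and trex8168. With the GC trend removed, the log2 ratio was -0.57 for MFSD3 (68.0% GC), -0.43 for KIF1A and 0.25 for SKIL. With the trend kept these were -0.97, -0.73 and 0.51. CPEB4 went from 0.66 to 0.51 with the trend removed, and CALCB from -0.98 to -1.02. Over the 12 lowest and 12 highest coding rows of that test, control lay between in 8 of the 12 lower rows and 11 of the 12 higher rows. In the other 4 lower rows, LTBP4, NBEAL2, LENG8 and SREBF1, both means were below control. The remaining higher row was NXT2, a cofactor of mRNA export, which had 1525 in trex4039 and 1085 in trex8168, both above control at 890.0. Rows picked for a large difference of fold changes against control tend by that choice to have control between trex4039 and trex8168. The share over all tested rows was not counted.

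The ratio followed the base composition of the transcript. GC content, taken from GENCODE v29 transcripts by symbol, was had for 5967 rows, of which 5687 were protein-coding (81.6% of the protein-coding rows). Across these rows the log2 ratio and GC content had a Spearman rho of -0.77 and a Pearson r of -0.74, as a description across genes of the same libraries, which are not independent replicates. The median log2 ratio was 0.28 in the bin of lowest GC (29.4% to 40.1%, 746 rows) and 0.20, 0.15 and 0.10 in the next 3 bins. It was -0.05 in the fifth bin, -0.20 and -0.27 in the following 2, and -0.35 in the bin of highest GC (62.0% to 76.6%). Transcript length had a rho of 0.17. Medians over the same bins were also taken here of the log2 fold changes against control in the authors' deposited table. For trex4039 these medians fell with GC, at 0.33 in the lowest bin and -0.32 in the highest. For trex8168 they were 0.08 in the lowest bin, 0.12 in the fourth and -0.01 in the highest. Both comparisons share the control libraries. The medians for trex5008 against the same control were 0.22 in the lowest bin and -0.26 in the highest. For trex0108 they were 0.07 and -0.06. A fall with GC against control was therefore not particular to trex4039. With a lowess trend on GC removed, the SD of the log2 ratio over these rows was 0.20, against 0.30 with the trend kept. Rows past 1.5-fold were then 48 higher and 45 lower, against 57 and 149 of the same rows with the trend kept. The approximate Wald test called 314 of 1408 rows that have a GC content with the trend kept, and 30 with it removed. GC content, or the value with the trend removed, is therefore given beside many results below. The adjusted p-values of single rows are from tests with the trend kept.

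**Figure D3:**
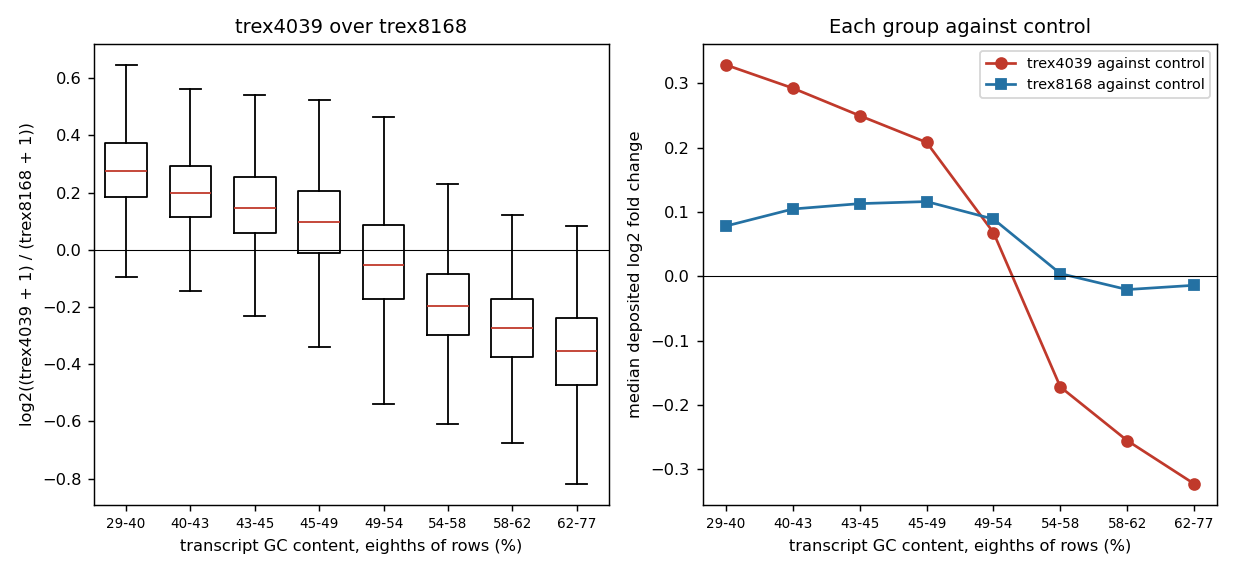
Left, log2 ratio of trex4039 over trex8168 in 8 bins of transcript GC content (boxes are quartiles, the red line the median, whiskers the furthest rows within 1.5 box heights); right, the median deposited log2 fold change against control in the same bins for trex4039 (circles) and trex8168 (squares). The medians on the left go from 0.28 at low GC to -0.35 at high GC. On the right the trex4039 line spans 0.33 to -0.32 while the trex8168 line stays between 0.12 and -0.02. The trex5008 medians, not drawn, go from 0.22 in the lowest bin to -0.26 in the highest.

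For PKLR, ALOXE3 and THBS1 the distance was larger with the GC trend removed. PKLR had a log2 ratio of 1.78 with the trend removed against 1.52 with it, ALOXE3 0.997 against 0.77 and THBS1 0.92 against 0.75; their GC contents of 59.1%, 57.9% and 55.5% are those of rows that were on the whole lower in trex4039. For the leading lower rows the distance shrank: SCNN1A had -1.76 with the trend removed against -1.99 with it, GFRA2 -1.27 against -1.51 and S100A4 -1.32 against -1.41. For rows of higher GC it shrank further: B4GALNT4, at 66.7% GC, had -0.64 with the trend removed against -1.03 with it, CLEC11A (67.7% GC) -0.60 against -0.999 and HBQ1 (68.8% GC) -0.58 against -0.998. Other coding rows past the extended Wald test led once the trend was removed, and are named after their values were seen. The chemokine receptor CXCR4 had 813.4 in trex4039 and 1610 in trex8168, with control at 1536. CGA, the shared alpha subunit of pituitary and chorionic hormones, had 138.7 in trex4039 and 264.0 in trex8168, with control at 161.2. FAT3, an atypical cadherin, had 310.7 in trex4039 and 578.1 in trex8168, with the other 3 groups at 276.2 to 313.8, the pattern of SCNN1A and GFRA2. On the higher side SPRY4, a feedback inhibitor of receptor kinase signalling, had 328.2 in trex4039 and 209.1 in trex8168, and SEMA5B, a guidance protein, had 159.3 in trex4039 and 100.7 in trex8168.

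Chromosomes and the zinc finger genes showed the same trend and what lay beyond it. Chromosome 19, with a median GC of 61.0% over the 394 of its 700 rows that have a GC content, had the lowest median log2 ratio, -0.30, followed by chromosome 16 at -0.23 and chromosome 22 at -0.22. Chromosome 18 at 0.16 and chromosome 4 at 0.15 were highest, with median GC of 44.3% and 43.1%. With the trend removed these 5 medians were between -0.02 and 0.02. Genes named ZNF, most of which encode zinc finger proteins that bind DNA and many of which sit in clusters on chromosome 19, went against their chromosome. The 54 ZNF rows on chromosome 19 had a median of 0.28 with 47 above 0, whereas the other 646 rows of that chromosome had -0.31 with 71 above 0. Their median GC contents were 43.7% and 61.6%. The 92 ZNF rows elsewhere had a median of 0.14, and the remaining 9003 rows 0.01. With the GC trend removed, ZNF rows on chromosome 19 had a median of 0.11, ZNF rows elsewhere 0.11, other rows on chromosome 19 -0.03 and the remaining rows 0.00; 108 of the 144 ZNF rows with a GC content lay above the trend. ZNF681 (chromosome 19, 23917061 to 23941878) had 193.2 in trex4039 and 116.1 in trex8168, with 120.4 in control, and was the 1 ZNF row among the leading 3 that lies on chromosome 19. The extended Wald test called 52 of 133 ZNF rows higher in trex4039 and 13 lower, against 15.9% and 22.6% of the 8815 tested rows of the comparison. ZNF genes are near copies of each other in part, so reads can be split between them.

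**Figure D4:**
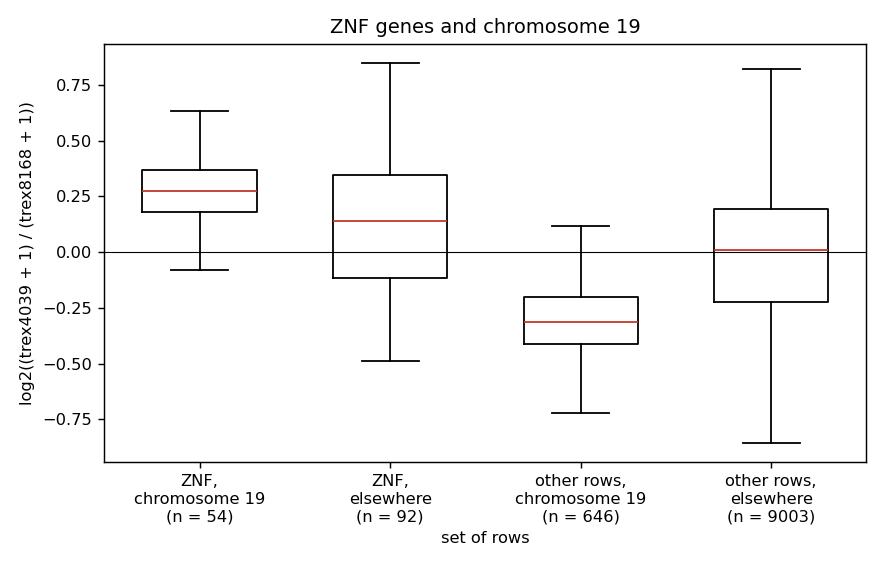
Log2 ratio of trex4039 over trex8168 for ZNF rows on chromosome 19 and elsewhere and for other rows on chromosome 19 and elsewhere (boxes are quartiles, the red line the median, whiskers the furthest rows within 1.5 box heights). The median of ZNF rows on chromosome 19 is 0.28 and that of other rows on the same chromosome -0.31.

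A total of 41 gene lists were described by their counts and medians; 39 had at least 5 rows, and 13 of these had a median at least 0.15 away from the median of all 9795 rows, which was -0.01. These were glycolysis, matrix proteins, NOTCH, cholesterol synthesis, cytosolic ribosomal proteins, radial glia, neuronal genes, axon guidance, TGF-beta and BMP targets and hypoxia targets on the lower side, and YAP and TEAD targets, ZNF genes and centrosome and cilium genes on the higher side. List members named below beyond the leading 3 of these lists were chosen after their values were seen. Of the 8815 rows of the comparison in the extended Wald test, 15.9% were called higher and 22.6% lower, and list counts are to be read beside those shares.

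**Figure D5:**
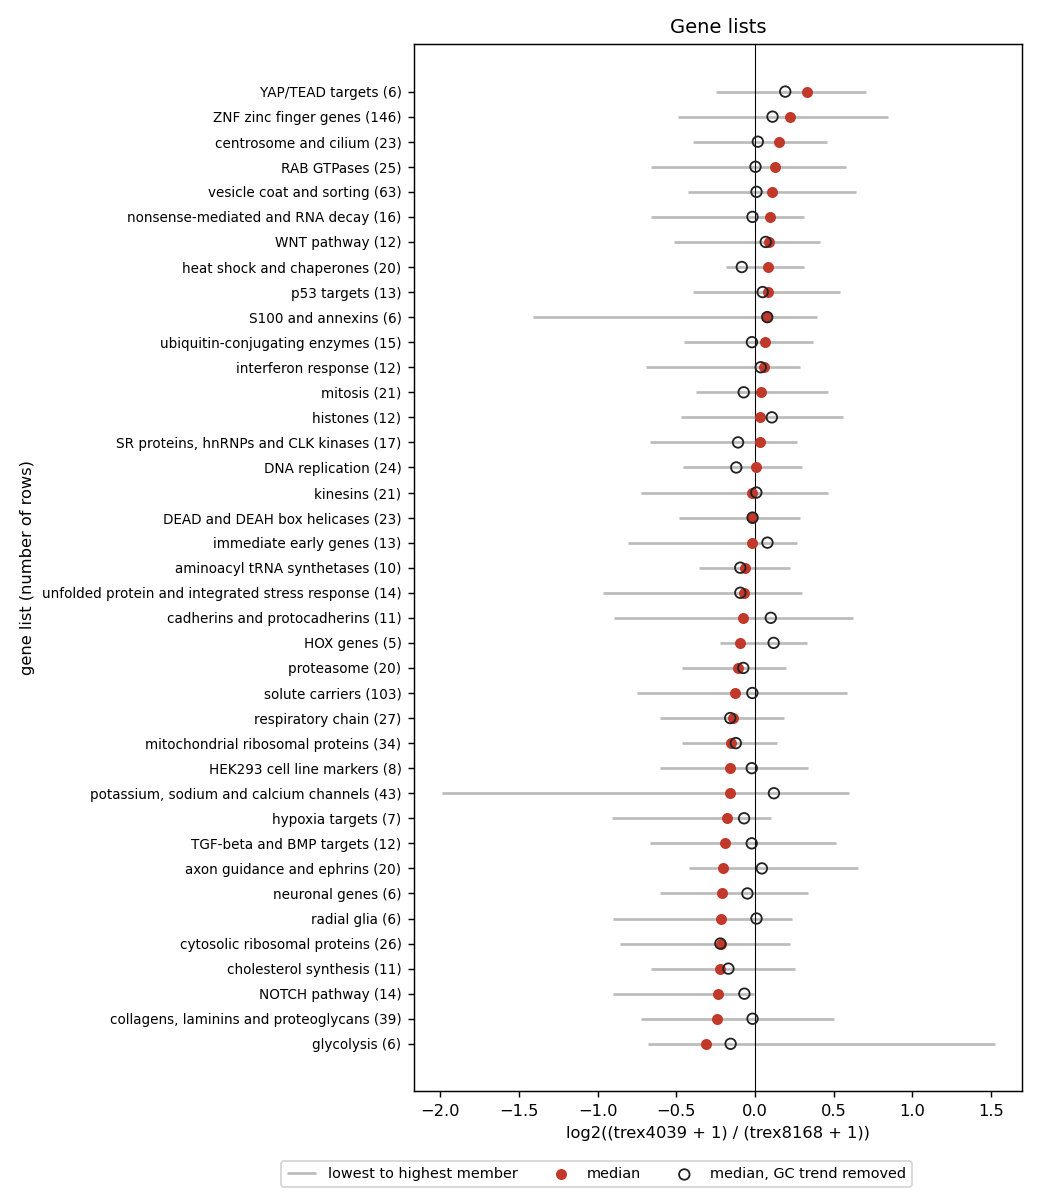
Median log2 ratio of trex4039 over trex8168 in 39 gene lists (filled), the median with the GC trend removed (open) and the range of the members (line); the number of rows is in brackets. The list of YAP and TEAD targets, which also holds YAP1 and TEAD1, stands highest at 0.33 and glycolysis lowest at -0.31. The open circles of most lists lie nearer to 0.

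The NOTCH pathway, in which receptors on a cell are cut on contact with ligands of a neighbour and then switch on HES and HEY repressors, had 14 rows, and all 14 lay below 0 (median -0.23). Among receptors, NOTCH3 had 2517 in trex4039 and 3483 in trex8168, and NOTCH1 (XLOC_066986) had 940.9 in trex4039 and 1112 in trex8168. Among ligands, JAG1 had 705.1 in trex4039 and 713.7 in trex8168 and DLL4 had 236.0 in trex4039 and 237.5 in trex8168, so the ligands were near level. Among HES genes, HES5 (chromosome 1, 2460184 to 2461702) had 107.2 in trex4039 and 201.0 in trex8168, with 245.8 in control. HES6 had 399.8 in trex4039 and 619.5 in trex8168, with 464.9 in control, and is not read here as a target of the pathway. RFNG, an enzyme that adds sugar to the receptors, had 1057 in trex4039 and 1403 in trex8168. The extended Wald test called 4 of 12 tested rows lower (HES5, HES6, NOTCH3 and RFNG) and 0 higher. NOTCH1 entered the approximate Wald test and did not pass it (adjusted p = 0.23). The rows had a median GC of 60.1%, and with the GC trend removed the median was -0.07 with 10 of 14 below it; HES5 was then at -0.52, NOTCH3 at -0.14 and NOTCH1 at 0.09. Radial glia genes, the neural stem cell set that shares HES5 and NOTCH1 with this list, had a median of -0.21 over 6 rows and 0.01 with the trend removed.

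Matrix and guidance lists had medians below 0 that lay near 0 once the GC trend was removed. Collagens, laminins and proteoglycans had a median of -0.24, with 34 of 39 rows below 0, and the extended Wald test called 15 of 35 lower and 2 higher. LTBP4, which holds latent TGF-beta in the matrix, had 930.7 in trex4039 and 1542 in trex8168, with 1801 in control. LTBP3, of the same family, had 1800 in trex4039 and 2860 in trex8168 in the larger of its 2 rows, and perlecan, HSPG2, had 633.4 in trex4039 and 919.6 in trex8168. The median was -0.02 with the GC trend removed. Axon guidance and ephrin genes had a median of -0.20 over 20 rows and 0.04 with the trend removed. Inside that list, 5 plexin receptors were all lower in trex4039 by a log2 ratio of -0.42 (PLXNB2) to -0.37 (PLXNA1), and at -0.16 (PLXNA3) to -0.06 (PLXNA1) with the trend removed. PLXNB2 had 3915 in trex4039 and 5229 in trex8168. Some guidance ligands were higher instead: SEMA3C had 525.6 in trex4039 and 340.4 in trex8168. TGF-beta and BMP targets had a median of -0.19 over 12 rows and -0.02 with the trend removed, with ID1, an inhibitor of differentiation factors, at 726.4 in trex4039 and 975.2 in trex8168. Potassium, sodium and calcium channels had a median of -0.16 over 43 rows and 0.12 with the trend removed, so the sign of that median depended on the trend.

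Ribosomal protein and respiratory chain lists had medians below 0 with and without the GC trend; no test was made of a list with the trend removed. Cytosolic ribosomal protein genes had a median of -0.22, with 24 of 26 rows below 0, and -0.22 with the trend removed, with 25 of 26 below it. RPS28 had 4534 in trex4039 and 8221 in trex8168, with 7079 in control; RPL13 had 24726 in trex4039 and 36453 in trex8168, with 31985 in control. The extended Wald test called 9 of 21 ribosomal rows lower and 0 higher, and pseudogenes of these genes can take part of their reads. The respiratory chain had a median of -0.14 over 27 rows, and 19 of its 20 rows with a GC content lay below the trend (median -0.16). NDUFB7, a subunit of complex I, had 1561 in trex4039 and 2375 in trex8168, and CYC1, cytochrome c1 of complex III, had 4082 in trex4039 and 5560 in trex8168. The extended Wald test called 8 of 25 respiratory chain rows lower and 0 higher, so most of these rows did not pass. Mitochondrial ribosomal proteins had a median of -0.15 over 34 rows and -0.12 with the trend removed, and 12 of 32 were called lower and 0 higher in that test.

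Glycolysis split in 2. PKLR, described above, was its highest row, and the other 5 rows lay below 0. PFKL, the liver type of phosphofructokinase, had 2640 in trex4039 and 4234 in trex8168, with 4256 in control. PFKP, the platelet type, had 4554 in trex4039 and 5944 in trex8168, and hexokinase 2, HK2, had 2594 in trex4039 and 3374 in trex8168. These 3 passed the extended Wald test (adjusted p = 1.93e-07, 5.49e-04 and 0.011), which keeps the GC trend. With the trend removed, the log2 ratio was -0.28 for PFKL, -0.16 for PFKP and -0.36 for HK2. With the trend kept these were -0.68, -0.38 and -0.38. The median of the 6 rows was -0.31, and -0.15 with the GC trend removed. Hypoxia targets had a median of -0.18 over 7 rows, of which 4 lay below 0 and 3 above it, and -0.07 with the trend removed; the extended Wald test called 3 lower and 0 higher. The stress gene NDRG1 had 4371 in trex4039 and 8225 in trex8168, with 6510 in control; ANKRD37 had 90.0 in trex4039 and 169.1 in trex8168, with 93.1 in control; and the glucose transporter gene SLC2A1 had 2172 in trex4039 and 3141 in trex8168. With the trend removed, the log2 ratio was -0.69 for NDRG1, -0.60 for ANKRD37 and -0.35 for SLC2A1, against -0.91, -0.90 and -0.53. VEGFA, the endothelial growth factor gene, at 1588 in trex4039 and 1800 in trex8168, did not pass (extended Wald test, adjusted p = 0.28). Cholesterol synthesis had a median of -0.22 over 11 rows and -0.17 with the trend removed, with 10 of 11 below it. SREBF1, a transcription factor of lipid synthesis, had 831.3 in trex4039 and 1312 in trex8168, with 1565 in control, and passed the approximate Wald test (adjusted p = 4.55e-09). DHCR7, the last enzyme of the pathway, had 2209 in trex4039 and 3168 in trex8168. INSIG1, the sterol-dependent anchor of the SREBP machinery, had 2456 in trex4039 and 3765 in trex8168 but did not pass the extended Wald test (adjusted p = 0.12). With the trend removed, the log2 ratio was -0.32 for SREBF1 and -0.29 for DHCR7, against -0.66 and -0.52. That of INSIG1 was -0.71 against -0.62.

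YAP and TEAD are the effectors of the Hippo pathway that respond to cell shape and density. The list of their targets, which also holds the effector genes YAP1 and TEAD1, was the highest list. Its median was 0.33 over 6 rows and 0.19 with the GC trend removed. CTGF had 1021 in trex4039 and 625.3 in trex8168, with 729.6 in control. CYR61, the other matricellular gene of the list, had 1444 in trex4039 and 1152 in trex8168, and the coactivator gene YAP1 had 3628 in trex4039 and 2932 in trex8168. These 3 passed the extended Wald test (adjusted p = 9.43e-06, 0.0086 and 0.0030). ANKRD1 at 0.37 and the transcription factor gene TEAD1 at 0.33 did not pass it (adjusted p = 0.071 and 0.057). CCND1, cyclin D1, went the other way, with 1620 in trex4039 and 1925 in trex8168 (extended Wald test, adjusted p = 0.024). Centrosome and cilium genes had a median of 0.16 over 23 rows and 0.02 with the trend removed, with CEP135 at 2260 in trex4039 and 1644 in trex8168. Neuronal genes had a median of -0.21 over 6 rows and -0.05 with the trend removed. NEFM, a neurofilament gene expressed in HEK293 lines, had 3590 in trex4039 and 5463 in trex8168, and STMN3, a tubulin-binding protein, had 1829 in trex4039 and 2474 in trex8168, whereas INA, another neurofilament gene, had 1687 in trex4039 and 1335 in trex8168.

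Single members of lists near 0 were also apart. MYC had 3323 in trex4039 and 5805 in trex8168, with 5835 in control, and JUN had 2766 in trex4039 and 4103 in trex8168, with 4332 in control; both passed the extended Wald test (adjusted p = 3.26e-15 and 1.33e-04). The immediate early list as a whole had a median of -0.02 over 13 rows and 0.08 with the GC trend removed. ISG15, a ubiquitin-like protein induced by interferon, had 405.4 in trex4039 and 657.2 in trex8168 (extended Wald test, adjusted p = 1.06e-06), in a list of 12 rows with a median of 0.06. Among p53 targets, RRM2B, a ribonucleotide reductase subunit, had 2014 in trex4039 and 1384 in trex8168 while BAX, a pore-forming death protein, had 1170 in trex4039 and 1541 in trex8168, and the median of the 13 rows was 0.08. Heat shock and chaperone genes had a median of 0.08 over 20 rows and -0.08 with the GC trend removed. Replication genes had a median of 0.01 over 24 rows and -0.12 with the trend removed, with 20 of 24 below it. Mitosis genes had a median of 0.04 over 21 rows and -0.07 with the trend removed, with 14 of 21 below it.

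The cell line's own markers were lower in sum in trex4039: 8 of 19 HEK293 markers were among the rows, with a summed level of 19056 in trex4039 and 21829 in trex8168, against 20892 in control. Of 13 markers of fibroblasts and blood cells, only COL3A1 and LUM were among the rows, with a sum of 510.5 in trex4039 and 477.8 in trex8168, against 489.9 in control. In bulk RNA, fewer cells of a kind and less RNA per cell cannot be told apart.

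The minimum mean of 50 lay between rows of all kinds: CATG00000060205.1 (mean of 50.0) and ENG (50.2) were just inside, and RP5-940J5.3 (49.9) and CDH20 (49.9) just outside. The 2-fold limit lay between CATG00000038842.1 at a log2 ratio of -1.01 and P2RX2 at -1.02, just inside, and CLEC11A at -0.999, HBQ1 at -0.998 and CXCR4 at -0.98, just outside. CATG00000038842.1 had 22.8 in trex4039 and 47.0 in trex8168 and passed neither Wald test (adjusted p = 0.13 in the approximate and 0.093 in the extended test). Under the minimum mean lay 1435 rows, of which 65 were at least 2-fold higher and 87 at least 2-fold lower; their levels are too low to be read singly without values per library.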

How the data were processed

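PolyA RNA of 15 HEK293FT libraries in 5 groups of 3, named by title, was sequenced from a strand-preserving kit, per the labels' protocols. The tools named in the submitters' processing notes are STAR 2.5.1b, Bowtie2 2.2.1, DESeq2 1.14.1, DESeq, Cufflinks and bedtools, on hg19 (GRCh37), with no step given for any. The deposited table holds signal columns, which are means of normalised counts that the authors took over each group and over all libraries. It also holds the authors' shrunken log2 fold changes against control, their adjusted p-values and their calls, which equal an adjusted p under 0.1. Counts per library were not used here, so depth, SD and intervals cannot be given and no replicate could be left out.

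From these values the log2 ratio of trex4039 over trex8168 was computed with a pseudocount of 1 over rows with a mean of at least 50. For the difference of the 2 deposited log2 fold changes, raw p-values were recovered from the deposited adjusted p and its rank among the listed rows, and the standard error from the fold change and the normal quantile. The covariance from the shared controls was set to 0, which makes the error too large. The two-sided Wald test used Benjamini-Hochberg adjustment over all rows tested and a threshold of 0.05. Tested on simulated data of 30000 genes for trex4039 and trex8168 with shared controls, the test on rows called in both called 0 of 5800 rows without a difference, 85 of 101 with a log2 difference of 0.5 and 136 of 136 with 1. The extended test called 0 of 7921, 149 of 194 and 200 of 200. In the simulation both groups had the same normal errors, no shrinkage was applied and no difference followed GC. The simulated rates therefore need not hold for the deposited values. The p-values of both Wald tests measure only the spread between libraries behind the authors' test.

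GC content and length are medians over GENCODE v29 transcripts matched by symbol, with trends removed by lowess (fraction 0.3). Promoters are from RefSeq on GRCh38.p14, matched by symbol. Coordinates otherwise are hg19 from the table. Python 3.11.15, pandas 2.3.3, scipy 1.17.1 and statsmodels 0.14.6 were used.

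Named rows are the 12 highest and 12 lowest protein-coding rows, the 4 at each end with a non-coding or clone-style name, the 3 at each end among locus rows, and the 3 furthest of each shifted list. Members, lists and tests were chosen with earlier results of these data known. Alternatives were the pseudocount, the minimum mean, centring, the fold threshold, the deposited fold changes, the number of tests, the covariance, and GC and length trends.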

Additional observations from a re-analysis of the deposited data

Results flagged for a closer look

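A total of 9 named rows are listed because the approximate Wald test of the difference between the 2 comparisons with control was passed, with Benjamini-Hochberg adjustment over 2385 rows. They had been named by the ratio of the same groups, so passing is no independent support. Values are the log2 fold change of trex4039 minus that of trex8168, both from the authors' deposited table, with the approximate standard error. In 6 rows the 2 fold changes had opposite signs. The glycosyltransferase gene ST8SIA6 had a difference of 0.65 ± 0.18, from 0.32 in trex4039 and -0.33 in trex8168 in the authors' deposited table. FAM150A, the ALK ligand gene, had -0.91 ± 0.21, from -0.29 in trex4039 and 0.62 in trex8168 in the authors' deposited table. The homeobox gene IRX4 had -0.87 ± 0.18 and the locus XLOC_032299 had -0.97 ± 0.16. STMN3, a tubulin-binding protein gene, had -0.41 ± 0.09, from -0.19 in trex4039 and 0.22 in trex8168 in the authors' deposited table. RPL13, a ribosomal protein gene, was at -0.34 in trex4039 and 0.18 in trex8168 in the authors' deposited table, a difference of -0.52 ± 0.11.

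In the other 3 rows both fold changes were below 0 and that of trex4039 was further from it. SREBF1, the lipid synthesis factor, had a difference of -0.62 ± 0.09. LTBP4 had -0.69 ± 0.09 and HSPG2, perlecan, had -0.48 ± 0.12; their fold changes were -0.90 and -0.96 in trex4039 and -0.21 and -0.49 in trex8168 in the authors' deposited table. Once the GC trend was taken out, the log2 ratio of the means was 0.65 for ST8SIA6, -0.73 for IRX4, -0.10 for STMN3, -0.37 for RPL13, -0.32 for SREBF1, -0.36 for LTBP4 and -0.23 for HSPG2.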

How the results depend on the processing

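Values per library were not used, so neither leaving out a replicate nor a count model could be run. No paired analysis was possible because the table holds group means only. Counts past 2-fold in trex4039, 5 higher and 16 lower as reported, were 70 and 103 with no minimum mean, and 40 and 72 with a minimum of 10. With a minimum of 100 there were 8 lower, and with 500 there were 1 higher and 4 lower. The 1.5-fold threshold gave 94 higher and 248 lower, and the difference of deposited fold changes gave 1 and 4. On the 5967 rows with a GC content, 2-fold counts were 1 higher and 10 lower with the trend kept, 1 and 9 with the GC trend removed, and 1 and 9 with the length trend removed. The 1.5-fold counts of those rows were 57 and 149 with the trend kept, 48 and 45 with the GC trend removed, and 62 and 143 with the length trend removed. The approximate test called 190 higher and 327 lower as reported. With a covariance of 0.5 of the product of both errors it called 432 rows higher (880 in all); rows called in either comparison gave 1419 and 2006. On the rows with a GC content 179 were lower with the trend kept, and 13 higher and 17 lower with it removed. The same 1408 rows were tested with the trend kept and with it removed, against 2385 as reported. The cause of the fall between the 2 was not tested. Among named rows, NOTCH1 at 0.086 and NES at 0.036 changed sign with the GC trend removed, 46 of 61 moved by more than their approximate standard error and 13 did not. The 1.5-fold counts with a trend removed, the counts on rows with a GC content and the test with the GC trend removed were added after the data were seen. With the deposited fold changes 40 of 73 moved and 0 changed sign. The other alternatives that were run (pseudocounts of 0.5 and 10, centring on all rows, length trend) moved 2 named rows, both at a pseudocount of 10. Low means limit the precision: of the 1435 rows under a mean of 50, 65 were past 2-fold higher and 87 past 2-fold lower.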
